A study of Mus musculus with 8 samples.

Results

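The genes described here make cholesterol and fatty acids, or control their making, and most are known targets of the SREBP transcription factors. They are the rows of the deposited gene tables whose symbol equals 1 of 33 listed names, 33 of 55492 genes in all. The rule matches names and uses no measured value, but the list was drawn up with earlier results of these data known. Of these, 21 belong to the sterol branch and 12 to the fatty acid branch, and all 33 passed the filter on low counts. RNA was measured in YUMM5.2, a cultured mouse melanoma line of the Yale University Mouse Melanoma series, labelled with the strain C57B/6J. The tested cultures received 4-OI, the abbreviation in this field for 4-octyl itaconate, a cell-permeable ester of the macrophage metabolite itaconate, and gave 4 libraries. The controls received the solvent DMSO and gave 4 libraries, and cells of both groups were cultured for 20 h. The labels also call the tested cultures itaconate-treated, the sources used here state no dose, and all 8 libraries come from 1 line. The comparison asks whether the transcripts of lipid synthesis differ between cells given 4-OI and cells given DMSO.

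SREBP proteins are made as precursors anchored in the endoplasmic reticulum. When membrane sterols are low, the escort protein SCAP carries them to the Golgi, where proteases release the part that enters the nucleus and switches on these genes. INSIG proteins hold the complex back when sterols are plentiful, so sterol enzymes, uptake genes and Insig1 itself tend to move together. SREBP2, the product of Srebf2, is known mainly for the sterol genes, and SREBP1, the product of Srebf1, for the fatty acid genes.

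The summed level of the pathway overlapped between the groups: the 33 transcripts together made up 0.381% ± 0.00469 of all TPM in the 4-OI libraries and 0.377% ± 0.00572 in the DMSO libraries (SD, n = 4 each). TPM, a transcript's share of all transcripts scaled to a fixed total, is the authors' unit that takes length into account. Single members differed in both directions by small amounts, with 7 higher and 7 lower at an adjusted p under 0.05, or 42.4% called, against 38.8% of all tested genes (19.3% higher and 19.6% lower). The extremes were Hsd17b7, an enzyme of the late sterol steps, 21.3% higher with 4-OI, and Mvk, mevalonate kinase, with a change of -19.4%. Both SREBP genes fell, Srebf1 with a change of -12.9% and Srebf2 with -6.72%, and the enzymes were called in both directions. No member differed by 1.5-fold or more, and the 95% interval of the fold change lay within 1.5-fold for all 33. That was also true of 96.4% of all tested genes at 10 CPM or more, and 5.99% of all tested genes reached a 1.5-fold difference.

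The promoters of 5 members that recur below are printed here, because SREBPs are known to act on promoters together with the factor NF-Y, which binds CCAAT boxes. Hmgcs1 carried the only match to the sterol element searched for, Mvk and Hsd17b7 were the extremes of the sterol branch, Acly had the largest called rise of the fatty acid branch, and Fasn, its central enzyme, was not called. Sequences are from RefSeq on GRCm38.p6, 5′ to 3′ on the gene's strand, with 250 bases before and 50 bases after the start of transcription. Capitals mark matches to the sterol regulatory element core TCACNCCAC and to CCAAT, on either strand.
Hmgcs1, chr13:119690101-119690400, plus strand: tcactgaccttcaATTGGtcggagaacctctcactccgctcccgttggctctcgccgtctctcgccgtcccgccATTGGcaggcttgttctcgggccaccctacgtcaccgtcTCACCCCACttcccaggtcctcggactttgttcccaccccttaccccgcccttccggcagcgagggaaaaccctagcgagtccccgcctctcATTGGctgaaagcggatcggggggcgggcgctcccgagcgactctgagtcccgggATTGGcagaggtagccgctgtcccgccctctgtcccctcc
Mvk, chr5:114444019-114444318, plus strand: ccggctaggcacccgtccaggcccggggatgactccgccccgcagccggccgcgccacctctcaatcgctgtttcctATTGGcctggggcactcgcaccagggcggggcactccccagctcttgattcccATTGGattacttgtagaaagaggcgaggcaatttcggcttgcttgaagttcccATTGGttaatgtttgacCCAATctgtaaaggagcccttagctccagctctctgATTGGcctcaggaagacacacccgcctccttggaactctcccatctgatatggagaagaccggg
Hsd17b7, chr1:169969156-169969455, minus strand: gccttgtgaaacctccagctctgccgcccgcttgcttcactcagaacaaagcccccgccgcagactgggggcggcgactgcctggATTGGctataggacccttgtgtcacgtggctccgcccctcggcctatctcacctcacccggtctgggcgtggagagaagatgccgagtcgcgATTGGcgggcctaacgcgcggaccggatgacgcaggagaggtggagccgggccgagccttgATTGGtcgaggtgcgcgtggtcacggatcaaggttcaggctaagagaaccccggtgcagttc
Acly, chr11:100527951-100528250, minus strand: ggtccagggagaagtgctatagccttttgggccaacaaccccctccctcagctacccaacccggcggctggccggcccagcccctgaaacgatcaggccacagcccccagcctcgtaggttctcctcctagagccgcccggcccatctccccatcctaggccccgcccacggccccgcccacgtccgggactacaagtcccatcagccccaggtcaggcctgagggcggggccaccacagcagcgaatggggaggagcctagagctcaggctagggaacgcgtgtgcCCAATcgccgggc
Fasn, chr11:120824498-120824797, minus strand: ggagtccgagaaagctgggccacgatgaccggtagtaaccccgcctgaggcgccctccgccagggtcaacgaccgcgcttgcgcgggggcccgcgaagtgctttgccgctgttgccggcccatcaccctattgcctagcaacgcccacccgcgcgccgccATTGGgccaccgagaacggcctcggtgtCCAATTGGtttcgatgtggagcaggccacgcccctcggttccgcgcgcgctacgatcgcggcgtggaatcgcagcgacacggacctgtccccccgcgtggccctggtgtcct

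The sterol element core was found in 1 of the 26 member genes with a promoter in the table, Hmgcs1, where it began 137 bases before the start of transcription. It was present in 1.31% of the 9826 tested genes with a promoter and in 1.24% of all 32851 promoters. CCAAT boxes were found in at least 1 promoter of 16 of 17 sterol genes (94.1%) and of 6 of 9 fatty acid genes (66.7%), against 43.6% of those tested genes. Mvk held 5 CCAAT matches and Hmgcs1 held 4, and in Fasn 2 of the 3 matches overlap each other. The GC box GGGCGG, which binds SP1, stood in 94.1% of the sterol genes and 55.6% of the fatty acid genes, against 69.6% of tested genes, and the E-box CACGTG in 23.5% and 11.1%, against 11.8%. Matches are to letters within 300 bases and say nothing of binding. Fdps, Fdft1, Sqle, Stard4, Scd1, Scd2 and Fads1 had no entry in the promoter table.

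**Figure D1:**
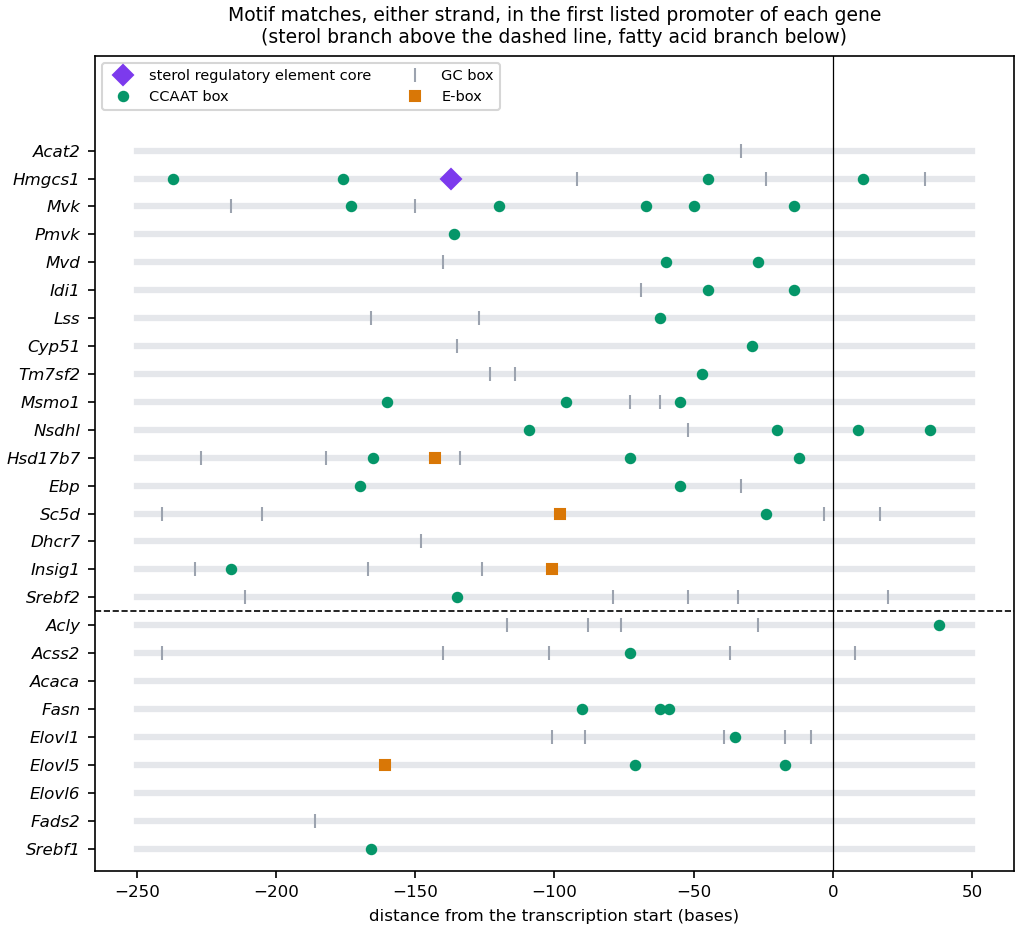
Positions of motif matches (markers by motif, either strand) along the window from 250 bases before to 50 bases after the start of transcription, 1 row per gene showing its first listed promoter, sterol branch above fatty acid branch. CCAAT matches recur along the sterol rows, and the single sterol element core lies in Hmgcs1.

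Total counts ranged from 25664999 to 31185027 in the 4-OI libraries and from 22962963 to 31361677 in the DMSO libraries. Of 7 melanocyte markers, 6 stayed under 1 TPM in every library and Mitf alone was tested, so the defining transcripts of melanocytes were near 0 in a line labelled as melanoma. The summed level of these 7 was 3.51 to 3.97 TPM with 4-OI and 2.37 to 3.05 TPM with DMSO. The 6 immune markers summed to at most 3.11 TPM, the 4 endothelial markers to at most 0.90 TPM and the 4 keratinocyte markers to at most 4.44 TPM in any library. The 8 fibroblast and mesenchymal markers summed to 6941 to 7063 TPM with 4-OI and to 9136 to 9550 TPM with DMSO. Most of that sum was S100a4 (4005 TPM with 4-OI and 5452 TPM with DMSO) and Vim (2347 and 2950 TPM). Of the 7 tested, 6 were called lower, against 19.6% of all tested genes. Pdgfra was called higher, by 0.10 on the log2 scale, and Thy1, at 0.055 TPM, was not tested. The part of these markers in the results below was not tested. In RNA from whole cultures, fewer cells of a kind and less RNA per cell cannot be told apart. The labels speak of separate experiments but no source says that libraries came from separate cultures, so p-values measure the spread between these libraries, which may be technical.

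Of the 33 members, 14 were called, or 42.4%, against 38.8% of all 13531 genes tested with edgeR and 46.9% of the 8977 genes at 10 CPM or more, a level that 32 of the 33 members reached. The share of called members lies between these, so it is not a result about the members. In 13 members (39.4%) the 4-OI and DMSO libraries did not overlap, against 35.4% of all tested genes. The members' differences were small: their median absolute log2 fold change was 0.06, against 0.12 for all tested genes and 0.09 for the genes at 10 CPM or more. The members also had higher counts, with a median of 129 CPM against 25.2 CPM for all tested genes. Their fold changes were not compared with those of genes at matched levels. CPM is here the expected count relative to the scaled library total, not corrected for length. Only Mvk and Hsd17b7 reached a 1.2-fold difference, whereas 12.4% of the genes at 10 CPM or more did. Counts of calls and folds are given without a test of the group as a whole.

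**Figure D2:**
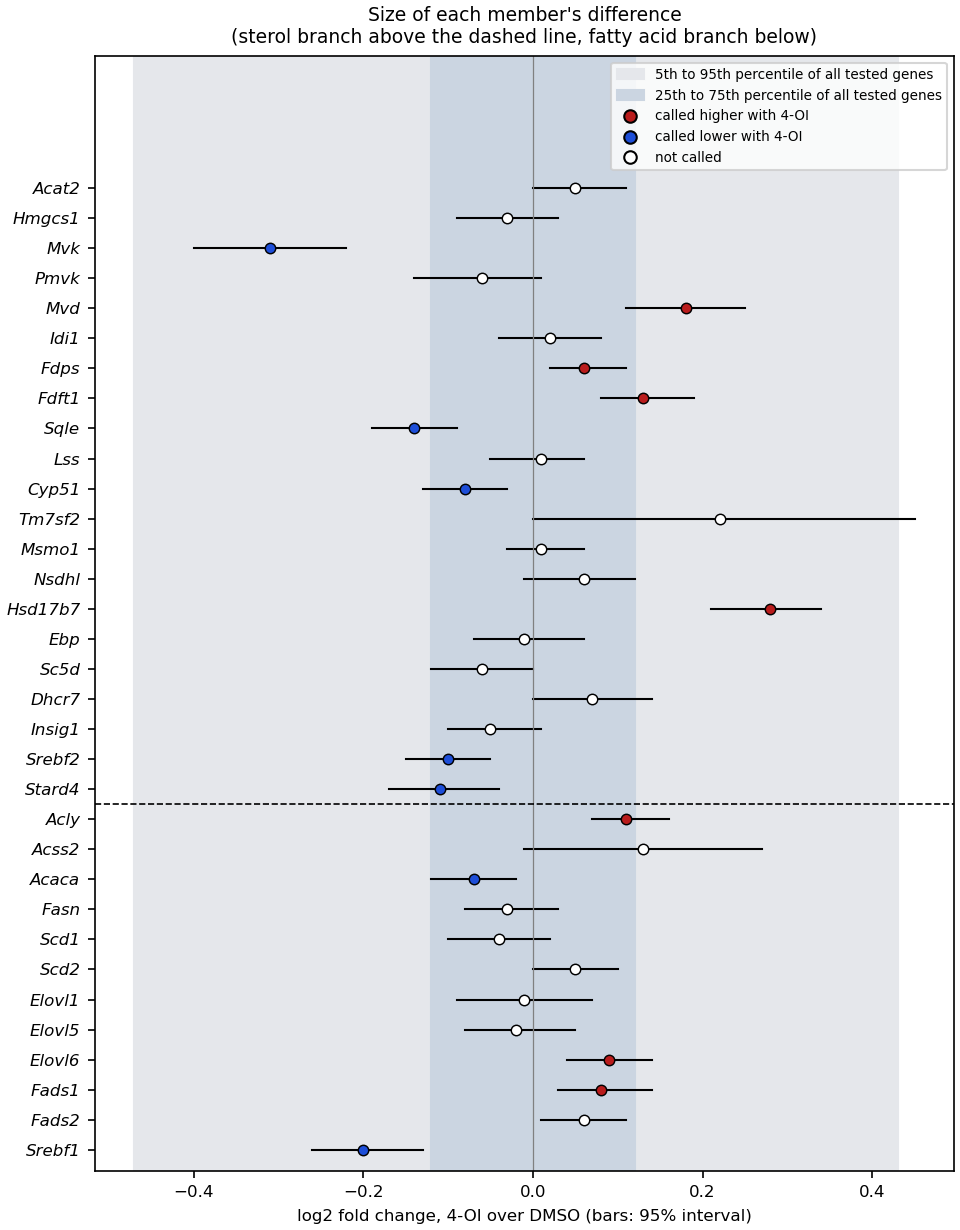
Log2 fold change of each member, 4-OI over DMSO (x axis), with its 95% interval as a bar; filled points were called higher or lower, open points were not called, and grey bands span the 25th to 75th and 5th to 95th percentiles of all tested genes. All 33 estimates fall inside the wider band of -0.47 to 0.43, and Mvk, Srebf1, Hsd17b7 and Tm7sf2 lie farthest from 0.

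The first steps of the sterol branch build isoprenoid units from acetyl-CoA. Of its 7 members, edgeR called 2 higher and 1 lower, leaving 4 without a call. The 42.9% called lies between the 38.8% of all tested genes and the 46.9% of those at 10 CPM or more. Mvk, which phosphorylates mevalonate (chr5:114444269-114460591), had 32.7, 32.0, 31.1 and 28.6 CPM in the 4-OI libraries, against 37.3, 38.6, 39.0 and 39.1 CPM in the DMSO libraries. No 4-OI library reached the lowest DMSO library, and the log2 fold change was -0.31 ± 0.04 (SE; adjusted p = 1.11e-05, edgeR). Mvd, the decarboxylase that ends the mevalonate steps (chr8:122433601-122443422), had 76.9, 76.9, 75.2 and 72.5 CPM with 4-OI, against 63.3, 66.9, 69.5 and 65.7 CPM with DMSO. The groups were again apart, this time with 4-OI on top, and the log2 fold change was 0.18 ± 0.03 (SE; adjusted p = 0.000165, edgeR). Kinase and decarboxylase, enzymes of the same chain, thus differed in opposite directions. Pmvk, the kinase between them, was not called, with 66.9 ± 3.22 and 69.9 ± 1.15 CPM (SD, n = 4 each) and a log2 fold change of -0.06.

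Hmgcs1, which condenses acetyl-CoA units into HMG-CoA and carries the sterol element shown above, had 302, 286, 296 and 315 CPM with 4-OI, against 311, 309, 301 and 303 CPM with DMSO. The groups overlapped, and the interval of the difference ran from -5.94% to 1.92%. Idi1, the isomerase that readies isopentenyl diphosphate for chain building, had 332, 324, 339 and 356 CPM with 4-OI, against 342, 336, 335 and 322 CPM with DMSO, which also overlap. Acat2, the thiolase of the first step, had a log2 fold change of 0.05 (adjusted p = 0.143, edgeR), which passed the threshold with scaling by library totals (0.0496). Fdps, which makes farnesyl diphosphate, was the most abundant member per length and had 480, 482, 467 and 469 CPM with 4-OI, against 446, 452, 455 and 463 CPM with DMSO. Its groups were apart by a narrow margin, with a log2 fold change of 0.06 (adjusted p = 0.0353, edgeR). That call ended without 4-OI replicate 1, 2 or 3 (adjusted p = 0.0723, 0.0800 and 0.0529), without DMSO replicate 1, 2 or 3 (0.0956, 0.0890 and 0.0508) and with the replicate number as a block (0.0563).

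Mvk lies head to head with Mmab, a gene of vitamin B12 metabolism, with 209 bases between their starts, so that the promoter printed above also holds the start of Mmab. Mmab was looked at after the values of Mvk had been seen. It had 31.9 CPM on average with 4-OI and 29.3 CPM with DMSO, a log2 fold change of 0.12 (adjusted p = 0.0282, edgeR), opposite in sign to that of Mvk. Of the other members, 3 had a protein-coding partner whose start lay within 1000 bases in this arrangement: Acaca with Tada2a, Dhcr7 with Nadsyn1 and Nsdhl with Cetn2. None of these 3 partners was called (log2 fold changes of -0.06, 0.20 and 0.08).

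From squalene to cholesterol, 2 of 11 members were higher, 2 were lower and 7 were not called. This share of 36.4% is near the 38.8% of all tested genes. Hsd17b7, a ketosteroid reductase of the demethylation steps (chr1:169949535-169969241), had 73.4, 71.2, 75.9 and 73.9 CPM with 4-OI, against 61.2, 61.7, 60.6 and 59.4 CPM with DMSO. Every 4-OI library stood above every DMSO library, with a log2 fold change of 0.28 ± 0.03 (SE; adjusted p = 3.9e-07, edgeR). Fdft1, squalene synthase and the first enzyme committed to sterols (chr14:63145150-63179578), had 137, 137, 136 and 131 CPM with 4-OI, against 124, 127, 119 and 124 CPM with DMSO. It was higher without overlap, by a log2 fold change of 0.13 ± 0.03 (SE; adjusted p = 0.000456, edgeR). Fdft1 shares 774 exonic bases, 18.3% of its own, with Ctsb on the opposite strand, and Ctsb was also higher with 4-OI, by 0.23 on the log2 scale. Whether the authors' counting used strand is not given, and the share of Ctsb reads in the values of Fdft1 was not tested.

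Sqle, squalene epoxidase and a rate-limiting oxygenase of the pathway (chr15:59315077-59331192), had 320, 322, 327 and 314 CPM with 4-OI, against 359, 348, 358 and 349 CPM with DMSO. The groups did not overlap and the log2 fold change was -0.14 ± 0.02 (SE; adjusted p = 5.83e-05, edgeR). Cyp51, lanosterol 14-alpha-demethylase, had 387, 366, 385 and 384 CPM with 4-OI, against 405, 400, 404 and 399 CPM with DMSO. It was lower by a smaller amount, with a log2 fold change of -0.08 (adjusted p = 0.0129, edgeR). Without 4-OI replicate 2 its adjusted p was 0.0515, without a filter on low counts 0.0516, and with TPM or FPKM 0.0692 to 0.0944.

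The remaining sterol enzymes were not called. Msmo1, a methylsterol oxidase, had 317, 315, 316 and 324 CPM with 4-OI, against 315, 321, 312 and 313 CPM with DMSO, and the interval of its difference ran from -2.38% to 4.18%. Lss, which closes the sterol rings, had a log2 fold change of 0.01, and Ebp, a sterol isomerase, had -0.01. For Nsdhl, a sterol dehydrogenase, it was 0.06 and for Dhcr7, which takes the last step of 1 of the routes to cholesterol, it was 0.07. Sc5d, sterol desaturase, had a log2 fold change of -0.06 (adjusted p = 0.0979, edgeR), and passed the threshold without 4-OI replicate 4 (0.0301) and with the correction for GC content and length (0.0165). Tm7sf2, a sterol reductase and the least abundant member, had 6.41, 6.10, 4.46 and 6.22 CPM with 4-OI, against 4.49, 5.03, 5.36 and 4.97 CPM with DMSO. Its 4-OI replicate 3 lay below every DMSO library while the other 3 lay above them, and without it the log2 fold change was 0.33 (adjusted p = 0.0071, edgeR), against 0.22 (0.107) with all libraries. Tm7sf2 shares 532 exonic bases, 12.1% of its own, with Vps51 on the same strand, and Vps51 was higher by 0.20 on the log2 scale (adjusted p = 0.00661, edgeR). The share of Vps51 reads in the values of Tm7sf2 was not tested.

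The 3 sterol regulators and carriers all had negative log2 fold changes, of which 2 were called. With so few genes, the 66.7% called, against 38.8% of all tested genes, is not read as a pattern of this step. Srebf2 (chr15:82147181-82205379) had 409, 421, 420 and 393 CPM with 4-OI, against 436, 443, 448 and 435 CPM with DMSO. The groups were apart, and the log2 fold change was -0.10 ± 0.03 (SE; adjusted p = 0.0039, edgeR). Stard4, a cytosolic sterol carrier, had 115, 109, 120 and 116 CPM with 4-OI, against 127, 126, 122 and 120 CPM with DMSO. Its lowest DMSO library equalled its highest 4-OI library to the digits shown, and its log2 fold change was -0.11 (adjusted p = 0.00913, edgeR). With TPM or FPKM in place of counts Stard4 was not called (adjusted p = 0.171 to 0.174). Insig1, a retention protein whose gene SREBP switches on when sterols are low and which serves as a common readout of SREBP activity, had 178, 169, 180 and 177 CPM with 4-OI, against 181, 181, 186 and 178 CPM with DMSO. It was not called, with a log2 fold change of -0.05 and an interval from -6.69% to 0.366%. It passed the threshold in 1 of 18 alternatives, the correction for GC content and length together with the replicate block (adjusted p = 0.0482).

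**Figure D3:**
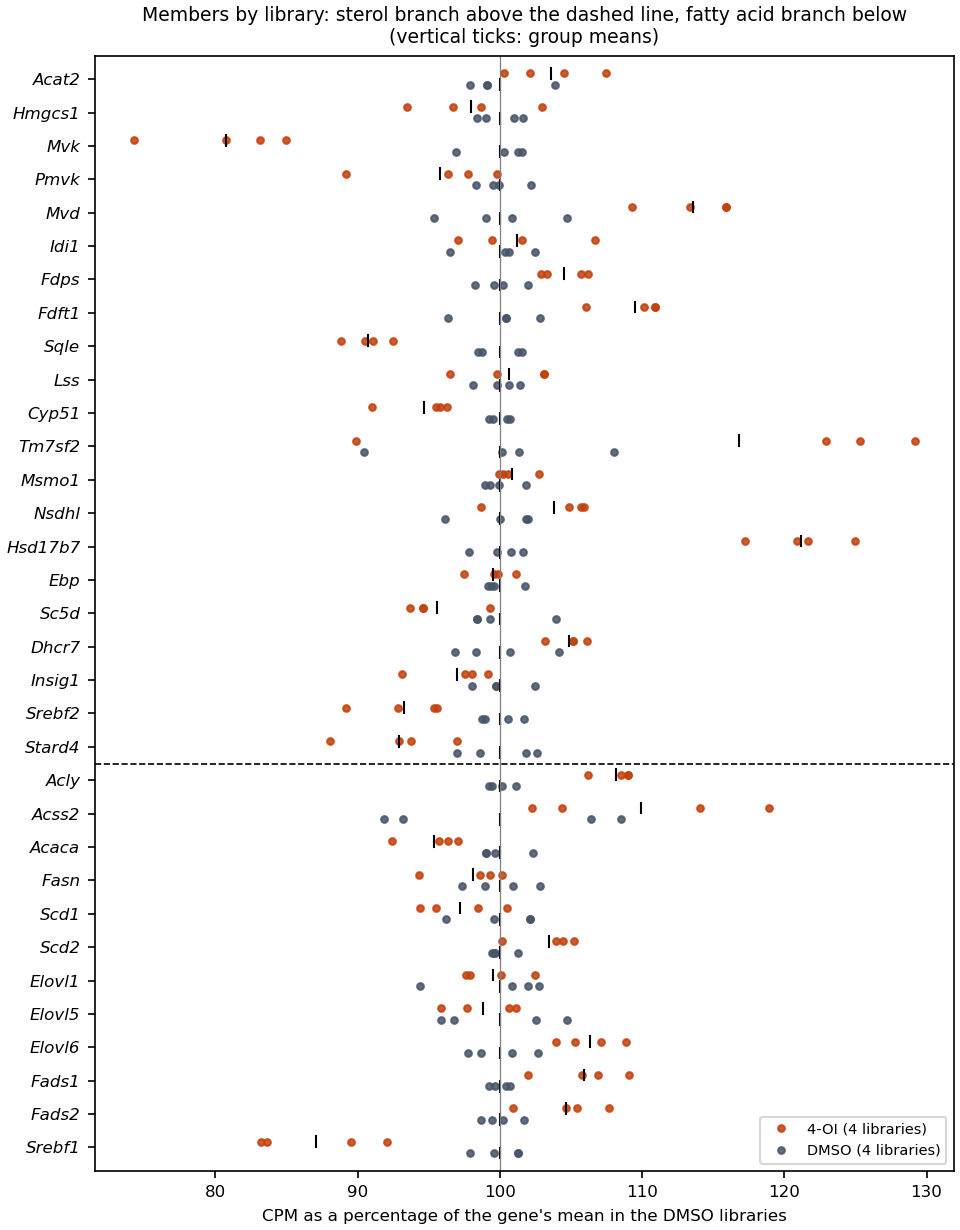
CPM of each member in each library, as a percentage of that gene's mean over the DMSO libraries (x axis), with 4-OI points above DMSO points in each row and black ticks at the group means. In 13 rows the groups do not overlap, and of these Mvk, Srebf1, Hsd17b7 and Mvd have the largest differences between group means. Most other rows lie within 10% of 100.

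In the fatty acid branch, acetyl-CoA is first supplied and then built into palmitate. Acly, which splits cytosolic citrate into acetyl-CoA (chr11:100476353-100528000), had 467, 469, 469 and 457 CPM with 4-OI, against 431, 427, 435 and 428 CPM with DMSO. It was higher without overlap, by a log2 fold change of 0.11 ± 0.02 (SE; adjusted p = 0.000358, edgeR). Acss2, which makes acetyl-CoA from acetate, was not called, with 15.8 ± 1.15 and 14.4 ± 1.28 CPM (SD, n = 4 each). It shares 395 exonic bases with Gss on the opposite strand, a gene of glutathione synthesis that was higher by 0.64 on the log2 scale.

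Acaca, acetyl-CoA carboxylase and the committed step (chr11:84129672-84401651), had 145, 147, 146 and 140 CPM with 4-OI, against 155, 151, 150 and 150 CPM with DMSO. The groups were apart, with a log2 fold change of -0.07 (adjusted p = 0.0378, edgeR), but the call is fragile. It ended without 4-OI replicate 1, 3 or 4 (adjusted p = 0.0891, 0.0560 and 0.0911), without DMSO replicate 1, 2 or 4 (0.114, 0.0636 and 0.0605), with DESeq2 (0.0628), with library totals (0.131) and with the GC and length correction (0.161). In TPM the log2 fold change of Acaca was 0.02, the opposite sign. Fasn, fatty acid synthase (chr11:120805846-120824547), had 552, 561, 556 and 528 CPM with 4-OI, against 576, 554, 545 and 565 CPM with DMSO. These overlap, and the interval of the difference ran from -5.55% to 1.79%.

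Palmitate is then desaturated and lengthened, and of these 7 members 2 were higher, none was lower and 5 were not called by edgeR. Called genes thus made up 28.6% here, against 38.8% of all tested genes. Elovl6, which lengthens palmitate to stearate (chr3:129532355-129638495), had 246, 242, 235 and 238 CPM with 4-OI, against 232, 221, 223 and 228 CPM with DMSO. The groups were apart, with a log2 fold change of 0.09 ± 0.02 (SE; adjusted p = 0.00619, edgeR). Fads1, the delta-5 desaturase of polyunsaturated fatty acids, had 98.9, 102, 100 and 95.4 CPM with 4-OI, against 94.2, 93.9, 92.8 and 93.2 CPM with DMSO. Its log2 fold change was 0.08 (adjusted p = 0.0208, edgeR), and the call ended without 4-OI replicate 2 or 3 (0.0678 and 0.0638), without DMSO replicate 4 (0.0528) and with TPM (0.0683). Fads2, the delta-6 desaturase, had a log2 fold change of 0.06 (adjusted p = 0.0630, edgeR) and passed the threshold without 4-OI replicate 4 (0.0116), with library totals (0.0200) and with the GC and length correction (0.0188).

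Scd1 and Scd2, the stearoyl-CoA desaturases that make oleate, stand near each other on chromosome 19, which holds 5 of the 33 members. Scd2 had 1582, 1571, 1563 and 1506 CPM with 4-OI, against 1499, 1498, 1523 and 1495 CPM with DMSO. Its groups overlapped because 4-OI replicate 4 lay below DMSO replicate 3, and without that 4-OI library the adjusted p was 0.0250, against 0.113 with all libraries. Scd1 had 431 ± 12.3 and 443 ± 12.0 CPM (SD, n = 4 each) and was not called. The ratio of Scd2 to Scd1 in TPM was 2.54 ± 0.259 with 4-OI and 2.35 ± 0.150 with DMSO (SD, n = 4 each), a difference within the spread. Elovl1 and Elovl5, elongases of saturated and of polyunsaturated chains, had log2 fold changes of -0.01 and -0.02 with intervals inside 10% in both directions.

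Srebf1, the regulator of this branch (chr11:60199089-60222581), had 99.9, 110, 107 and 99.4 CPM with 4-OI, against 119, 121, 121 and 117 CPM with DMSO. Every 4-OI library lay below every DMSO library, and the log2 fold change of -0.20 ± 0.03 (SE; adjusted p = 4.02e-05, edgeR) was the second largest fall of the members after Mvk. The gene has several starts of transcription, and gene counts do not tell its isoforms apart. Srebf1 shares 109 exonic bases, 1.9% of its own, with Rai1 on the opposite strand. Rai1 was lower by 0.10 on the log2 scale (adjusted p = 0.0346, edgeR), and the share of its reads in the values of Srebf1 was not tested. Besides Fdft1, Acss2 and Srebf1, Cyp51 shares exonic bases with Akap9 and Elovl1 with Cdc20, both on the opposite strand. The ratio of Srebf2 to Srebf1 in TPM was 3.32 ± 0.169 with 4-OI and 3.05 ± 0.109 with DMSO (SD, n = 4 each). The groups overlapped in this ratio, with 4-OI replicate 3 at 3.11 and DMSO replicate 4 at 3.18.

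Set side by side, the branches had similar shares of calls and similar medians. Both shares lie between the 38.8% of all tested genes and the 46.9% of genes at 10 CPM or more. They are therefore not a result about the branches. In the sterol branch 4 of 21 members were higher and 5 lower (42.9% called), with a median log2 fold change of 0.01. In the fatty acid branch 3 of 12 were higher and 2 lower (41.7% called), with a median of 0.02, and the median of all tested genes was 0. These small counts moved with the settings: 5 fatty acid genes were higher without 4-OI replicate 4, with library totals and with the GC and length correction. A single one, Srebf1, was lower without 4-OI replicate 1, 3 or 4, without DMSO replicate 1, 2 or 4, and in 8 of the other alternatives, those in which Acaca was not called. The median absolute log2 fold change was 0.06 in each branch. The sterol transcripts summed to 2599, 2564, 2553 and 2519 TPM in the 4-OI libraries, against 2576, 2543, 2542 and 2512 TPM in the DMSO libraries. The fatty acid transcripts summed to 1252, 1270, 1260 and 1226 TPM with 4-OI, against 1274, 1211, 1218 and 1202 TPM with DMSO. Both pairs of sums overlap between the groups. The mean log2 CPM of a branch, centred per gene, weighs its members alike. For the fatty acid branch it was 0.023, 0.027, 0.012 and -0.032 with 4-OI, against -0.001, -0.013, -0.008 and -0.008 with DMSO. Here 4-OI replicate 4 lay below every DMSO library, and the other 4-OI libraries lay above them. For the sterol branch it was 0.021, -0.003, -0.001 and -0.005, against -0.008, 0.006, 0.007 and -0.017, and the groups intermix. No test of the branch difference is given, since the members were chosen with results known.

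Within the groups the members were tightly measured, with a median coefficient of variation of 2.65% over the 4-OI libraries and 1.79% over the DMSO libraries. The widest was Tm7sf2 with 4-OI, at 15.5%, and Acss2 with DMSO, at 8.89%. Per length, Fdps led with 684 ± 16.5 TPM with 4-OI and 651 ± 5.88 TPM with DMSO (SD, n = 4 each). Scd2 followed with 455 ± 16.6 and 439 ± 5.88 TPM, and then Msmo1 with 250 ± 1.91 and 246 ± 4.27 TPM, each given for 4-OI and then DMSO. The next levels, Sqle with 177 TPM with 4-OI and 194 TPM with DMSO, Scd1 with 180 and 187, and Idi1 with 184 and 182, lie close together, and the SDs of Scd1 reach those of its neighbours. At the low end stood Hsd17b7 with 24.8 and 20.5 TPM, Acss2 with 8.69 and 7.70 TPM, and Tm7sf2 with 8.49 and 7.25 TPM, again for 4-OI and DMSO.

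**Figure D4:**
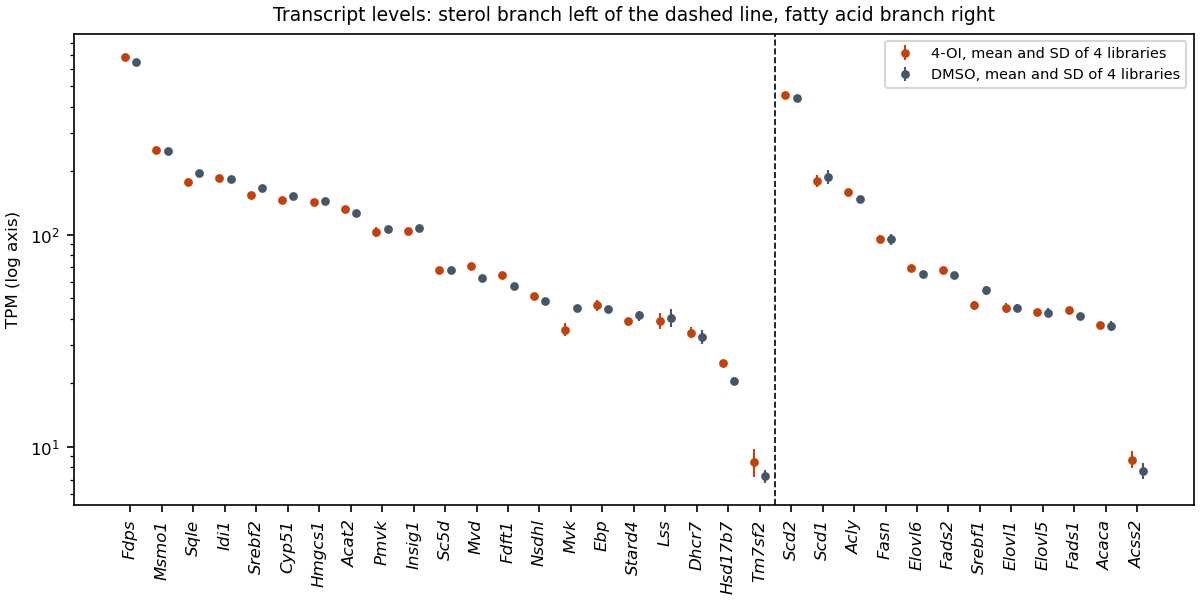
Mean TPM with SD over 4 libraries for each member (log axis), 4-OI left of DMSO, sterol branch left of the dashed line and fatty acid branch right of it, ordered by the DMSO level. Levels run from 8.49 TPM in Tm7sf2 to 684 TPM in Fdps with 4-OI, and the 2 points of most genes nearly coincide.

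Around the members, the machinery that processes SREBPs and senses sterols had 6 of 12 listed genes higher, 1 lower and 5 not called, with a median log2 fold change of 0.07. That is 58.3% called, against 38.8% of all tested genes and 46.9% of those at 10 CPM or more. Usp20, a deubiquitinase, had 31.1 ± 0.901 CPM with 4-OI and 21.8 ± 0.602 CPM with DMSO (SD, n = 4 each), a log2 fold change of 0.51 (adjusted p = 1.11e-08, edgeR). Insig2, a relative of Insig1 that also retains SREBP, rose by 0.28 on the log2 scale (adjusted p = 2.69e-05, edgeR), and Mbtps2, the site-2 protease that frees SREBP, by 0.19 (0.00117). The ratio of Insig1 to Insig2 in TPM was 2.03 ± 0.121 with 4-OI and 2.81 ± 0.198 with DMSO (SD, n = 4 each), with no overlap between the groups. Scap, the escort itself, had a log2 fold change of 0.04 and was not called.

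Genes of sterol efflux and of the LXR receptors that control it had 6 of 9 tested members higher and 2 lower. This makes 88.9% called, against 38.8% of all tested genes and 46.9% of those at 10 CPM or more. Abca1, which exports cholesterol, had 157 ± 5.64 CPM with 4-OI and 127 ± 3.28 CPM with DMSO (SD, n = 4 each), and Rxra, the partner receptor of LXR, was higher by 0.28 on the log2 scale. Abcg1, another exporter and LXR target, was lower by contrast, with a log2 fold change of -0.32 (adjusted p = 0.0196, edgeR) at 4.13 and 5.17 CPM with 4-OI and DMSO. Mylip, the other gene called lower, had a log2 fold change of -0.26 (adjusted p = 0.000402, edgeR) at 14.9 and 17.8 CPM. In the list of sterol uptake, transport and esterification, 7 of 16 tested genes were higher and 4 lower (68.8% called). Beside it stand the same 38.8% of all tested genes and 46.9% at 10 CPM or more. Lipa, the lysosomal acid lipase that frees cholesterol from its esters, had 49.4 ± 0.574 CPM with 4-OI and 23.5 ± 0.662 CPM with DMSO (SD, n = 4 each), a log2 fold change of 1.08. Lrp8, a lipoprotein receptor, was higher by 0.40 and Stard3, a late endosomal sterol carrier, by 0.29. The 4 genes that fell were Tmem97 (-0.24), the lipoprotein receptors Vldlr (-0.23) and Lrp1 (-0.21), and Npc2 (-0.12), a lysosomal sterol carrier.

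The isoprenoid branches that leave the sterol chain at farnesyl diphosphate had 3 of 13 genes higher and 2 lower. The 38.5% called is a share at that of all tested genes (38.8%) and below the 46.9% at 10 CPM or more. Pdss1 and Pdss2, the subunits of the enzyme that makes the side chain of coenzyme Q, had log2 fold changes of -0.25 and 0.25, and Ggps1, which makes geranylgeranyl diphosphate, had 0.19. Genes listed for the supply of precursors and NADPH to lipid synthesis had 6 of 11 tested members higher and 1 lower (63.6% called), with a median of 0.29. That list also holds enzymes of fatty acid oxidation and of ketone bodies. Its share called stands against the same 38.8% of all tested genes and 46.9% at 10 CPM or more. Pgd and G6pdx, the NADPH-forming dehydrogenases of the pentose phosphate pathway, were higher by 1.09 and 0.98 on the log2 scale. Acaa2, a mitochondrial thiolase of fatty acid oxidation, was higher by 0.68, and Oxct1, a ketone body enzyme, was the gene called lower (-0.39). Slc25a1, which exports the citrate that Acly uses, had a log2 fold change of 0.07 and was not called.

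Partners of fatty acid elongation and activation had 7 of 16 tested genes higher and 3 lower (62.5% called). Of all tested genes 38.8% were called, and of those at 10 CPM or more 46.9%. Acacb, the carboxylase isoform tied to the control of fatty acid oxidation, was at 1.56 ± 0.207 CPM with 4-OI and 0.746 ± 0.162 CPM with DMSO (SD, n = 4 each), a log2 fold change of 1.05, and Elovl7 was higher by 0.81 at a similar level. Fads3, the third gene of the Fads cluster, fell by 0.38 on the log2 scale (adjusted p = 2.67e-07, edgeR), unlike Fads1. In glycerolipid synthesis 4 of 15 genes were higher and 1 lower. The 33.3% called is below the 38.8% of all tested genes and the 46.9% of those at 10 CPM or more. Plin2, which coats lipid droplets, had 329 ± 2.58 CPM with 4-OI and 183 ± 4.46 CPM with DMSO (SD, n = 4 each), a log2 fold change of 0.85, ahead of Agpat3 (0.36) and Lpin2 (0.32), enzymes of phosphatidate synthesis and use.

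**Figure D5:**
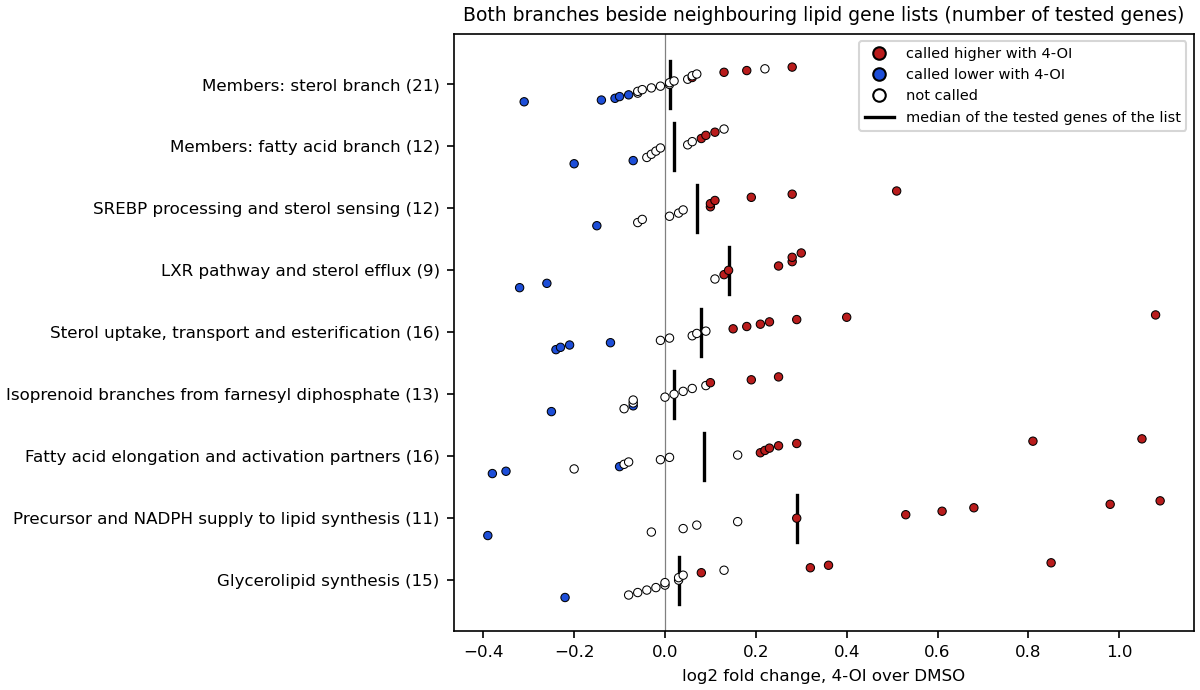
Log2 fold change, 4-OI over DMSO (x axis), of every tested gene in the sterol and fatty acid branches and in 7 neighbouring lists, with black bars at the list medians and fill showing the call. The points of both branches stay between -0.31 and 0.28, while Pgd (1.09), Lipa (1.08), Acacb (1.05) and Plin2 (0.85) mark the upper ends of 4 of the neighbouring lists.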

How the data were processed

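RNA of 8 libraries was measured, 4 with 4-OI and 4 with DMSO, grouped by their titles; per the labels' protocols it was polyA RNA in Illumina TruSeq libraries, read as paired ends. RSEM 1.3.3, STAR 2.7.8a, MultiQC 1.7, FastQC 0.11.8, cutadapt 2.3 and the build GRCm38 appear, without role or order, per the submitters' processing notes. The authors deposited expected counts per gene, whole in every cell, and TPM and FPKM values. Reads shared by similar genes are divided by a model in expected counts. The sources used here give neither the annotation release nor the strand setting.

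The test was edgeR 4.0.16 in R 4.3.3 on expected counts of all genes: filterByExpr (minimum count 10, 13531 genes kept), TMM scaling and glmQLFTest (a quasi-likelihood test, no covariates), with Benjamini-Hochberg adjustment over all 13531 genes and a call at an adjusted p under 0.05. Intervals are 95% intervals from that fit. CPM uses the TMM-scaled library total. Where a symbol stood on several rows (114 symbols), only its most highly counted row was used under that name. Positions and exon overlaps came from GENCODE M21, promoters from RefSeq. The procedure was tested on simulated counts.

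The members and the neighbouring lists were chosen with earlier results of these data known. Every member is accounted for; values per library are given for the called members of each step with the largest differences, both SREBP genes, Insig1 and abundant members not called, and up to 3 called genes per neighbouring list are named. Others, such as Tm7sf2, Mmab, Mylip, Oxct1 and the 4 genes of sterol uptake and transport that fell, were added after their values were seen. Some other genes of the pathway are not reported here. Alternatives were other scaling, DESeq2 1.42.0, no filter, TPM and FPKM with limma 3.58.1 on log2(value + 1), a pseudocount of 0.1, the replicate number as a block, offsets for GC content and length, and leaving out each library. Figures were drawn with matplotlib 3.10.9.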

Additional observations from a re-analysis of the deposited data

Results flagged for a closer look

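Of 66 sets of 4 libraries (33 members in 2 groups), 7 held a library farther from the rest than Dixon's 95% critical value for 4 samples allows. Chance alone gives about 1 in 20 for independent sets of normally distributed values. The sets share the same libraries and only members were examined, so 7 of 66 cannot be read against that rate. With 4-OI, the library apart was the lowest in all 4 cases: replicate 2 for Cyp51 at 366 CPM, replicate 3 for Tm7sf2 at 4.46 CPM, replicate 1 for Nsdhl at 65.8 CPM and replicate 4 for Acly at 457 CPM. With DMSO it was the highest in all 3 cases: replicate 1 for Sc5d at 111 CPM and for Acaca at 155 CPM, and replicate 3 for Scd2 at 1523 CPM. The 7 values come from 6 different libraries. In the gene counts at large, 4-OI replicate 4 differed most from the other libraries of its group. A chi-square per degree of freedom was 4.33, 4.46 and 3.37 against replicates 1, 2 and 3. It was 1.86 to 2.77 between the other 4-OI libraries and 2.01 to 3.12 between DMSO libraries. Without that library Scd2, Fads2 and Sc5d passed the threshold and Acaca lost its call, as given above.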

How the results depend on the processing

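Of the 14 calls, 9 held in all 18 alternatives (Mvk, Mvd, Fdft1, Sqle, Hsd17b7, Srebf2, Acly, Elovl6 and Srebf1) and 5 were lost in at least 1, the cause of which was not tested. Of the 19 members not called, 13 were called in no alternative. With TPM at a pseudocount of 1 or 0.1 and with FPKM, 4 members were lower in place of 7, 3 of them sterol genes in place of 5, and 1620, 1615 and 1535 of all genes were lower in place of 2646, while 1760, 1750 and 1888 were higher in place of 2607. The sterol median was 0.02 with TPM and 0.03 with FPKM, and with FPKM the fatty acid median was 0.04 and that of all genes 0.01. One fatty acid gene was lower, not 2, with TPM, FPKM, library totals, DESeq2's test, no filter, and the GC and length correction with or without the block (1 in each). With library totals and with the GC and length correction 5 fatty acid genes were higher in place of 3. Library totals gave medians of 0.03 for the sterol branch, 0.04 for the fatty acid branch and 0.02 for all genes; the GC and length correction gave a sterol median of 0, and -0.01 with the block.

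Signs turned for 9 members with values near 0. In TPM these were Lss (-0.04), Ebp (0.06), Acaca (0.02), Fasn (0), Elovl1 (0) and Elovl5 (0.02), and in FPKM Lss (-0.04), Ebp (0.06), Sc5d (0), Acaca (0.03), Fasn (0.01), Elovl1 (0.01) and Elovl5 (0.03). They were Ebp (0.01), Elovl1 (0.01) and Elovl5 (0) with library totals, and Ebp (0) and Elovl1 (0) without a filter. With the GC and length correction, with or without the block, they were Idi1 (0), Msmo1 (-0.01) and Fasn (0.02).

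Leaving out 1 library gave 5 to 9 members higher and 6 to 7 lower, 3 to 4 sterol genes higher and 4 to 6 lower, 2 to 5 fatty acid genes higher and 1 to 2 lower, and of all genes 2249 to 2522 higher and 2369 to 2666 lower. Medians ran from -0.01 to 0.01 (sterol) and from 0.01 to 0.03 (fatty acid). Log2 fold changes ran from -0.01 to 0.04 for Idi1, -0.01 to 0.03 for Lss, -0.01 to 0 for Ebp, -0.03 to 0.01 for Elovl1 and -0.04 to 0.01 for Elovl5. The replicate numbers are not said to pair libraries, and same-numbered libraries correlated by 0.0689, 0.0702, -0.0142 and -0.0155 in their deviations. With the replicate block 6 members were higher and 7 lower, with only Fdps losing its call, and of all genes 2526 were higher and 2618 lower. Depth limits Tm7sf2 most, the member with the fewest counts.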

Other observations

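Close paralogs of 3 members had few counts in this line. Acat3, which lies beside Acat2, had counts of 16 to 27 with 4-OI and 14 to 26 with DMSO, where Acat2 had at least 3778 in every library. The desaturase genes Scd3 and Scd4 had counts of 1 to 6 and 6 to 13 with 4-OI and of 1 to 7 and 4 to 9 with DMSO, beside at least 10288 for Scd1. Idi2 had counts of 0 to 1 with 4-OI and 0 to 2 with DMSO, beside at least 7640 for Idi1.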
